A study of Homo sapiens with 29 samples.

Results

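The genes described are 6 close relatives of HNRNPA1, chosen by name: HNRNPA2B1, HNRNPA3, HNRNPA0 and HNRNPAB of the hnRNP A/B family, and HNRNPD and HNRNPDL of the hnRNP D family. They are 6 of 16382 genes in the siRNA table and hold 23 of 16198 windows in the 3 peak lists. All cells were HEK293, a human embryonic kidney line. For RNA sequencing of whole cells they were given siRNA against hnRNPA1 (n = 4) or control siRNA (n = 4). For RNA immunoprecipitation (RIP), beads carrying hnRNPA1 antibody or normal IgG were used on whole-cell lysate (3 hnRNPA1 and 3 IgG libraries), cytosol (4 and 4) or mitochondria (4 and 3). The labels name 1 siRNA treatment against hnRNPA1 and no rescue, so loss of hnRNPA1 and off-target effects of the siRNA cannot be told apart. The labels do not say whether the libraries of a group stem from separate cultures, and p-values here reflect only the spread among these libraries, which may be technical. All 6 chosen HEK293 markers (KRT8, KRT18, VIM, NEFM, PAX2 and LHX1) were present. PAX2 was the lowest, near the minimum of 10 for testing, at a mean of 12.2 normalised reads in hnRNPA1 siRNA libraries and 10.3 in control libraries. Of 5 fibroblast markers 3 were listed (COL1A1, COL3A1 and LUM), with summed levels of 83.0 to 118 normalised reads in hnRNPA1 siRNA libraries and 105 to 123 in control libraries, and none was called by limma. None of the chosen endothelial and leukocyte markers was listed. Reads assigned to the listed genes were estimated at 16600000 to 22100000 per siRNA library, as summed normalised values divided by the fitted value of a single read. No depth can be read from the RIP lists.

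Proteins of these families carry a pair of RNA-recognition motifs and, in most, a glycine-rich tail. They bind nuclear pre-mRNA, shuttle to the cytoplasm and take part in splicing, mRNA transport and mRNA decay. hnRNPA1 prefers RNA with UAG cores such as UAGGG, and HNRNPD, also called AUF1, binds AU-rich elements of short-lived mRNAs. Several hnRNP genes, HNRNPDL and HNRNPA2B1 among them, carry alternatively spliced segments through which their own mRNA can be sent to nonsense-mediated decay. The knockdown table holds 1 value per gene, so such isoforms were not measured.

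The starts of 3 members lay inside windows of the whole-cell hnRNPA1 list. For that reason their promoter sequences (RefSeq, GRCh38.p14, 250 bases before the start and 50 after it, 5′ to 3′) are shown. Of the 250 bases before the start, the windows held all in HNRNPA0, 7 in HNRNPD and 0 in HNRNPAB. Capitals mark the 50 bases from the start, all of which fell inside the listed window in each gene. HNRNPD is at chr4:82373942-82374241, minus strand, HNRNPA0 at chr5:137754314-137754613, minus strand, and HNRNPAB at chr5:178204283-178204582, plus strand.
HNRNPD: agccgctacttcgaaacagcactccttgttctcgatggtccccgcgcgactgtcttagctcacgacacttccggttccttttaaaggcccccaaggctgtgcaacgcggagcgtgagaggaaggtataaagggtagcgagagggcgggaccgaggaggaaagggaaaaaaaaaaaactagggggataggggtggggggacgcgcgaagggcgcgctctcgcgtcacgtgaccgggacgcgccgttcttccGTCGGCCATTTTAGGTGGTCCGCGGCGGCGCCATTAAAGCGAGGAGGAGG
HNRNPA0: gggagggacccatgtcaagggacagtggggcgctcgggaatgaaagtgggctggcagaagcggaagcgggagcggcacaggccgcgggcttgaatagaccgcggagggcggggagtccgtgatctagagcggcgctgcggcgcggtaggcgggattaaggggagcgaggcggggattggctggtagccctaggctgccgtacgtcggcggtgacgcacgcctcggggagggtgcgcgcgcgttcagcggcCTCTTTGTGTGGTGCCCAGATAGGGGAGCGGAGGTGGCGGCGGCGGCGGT
HNRNPAB: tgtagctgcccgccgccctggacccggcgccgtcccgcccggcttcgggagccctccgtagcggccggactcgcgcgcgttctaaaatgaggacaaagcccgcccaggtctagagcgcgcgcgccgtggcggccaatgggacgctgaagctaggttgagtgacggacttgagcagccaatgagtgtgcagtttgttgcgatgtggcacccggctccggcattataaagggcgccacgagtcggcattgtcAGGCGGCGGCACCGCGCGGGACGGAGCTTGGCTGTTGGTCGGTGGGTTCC
The motif TAGGG, the DNA form of the preferred core, was searched on both strands of these 300 bases. The shorter core TAGG was searched as well and lies within each TAGGG. On the strand of the transcript, HNRNPD held TAGGG at positions -73 and -65 from the start and a further TAGG at position 12. The first 2 of these lay outside the window, which reached 7 bases upstream of the start. HNRNPA0 held TAGGG at position 21 and further TAGG at positions -105 and -61. HNRNPAB held TAGG at position -100, outside its window, and no TAGGG. Of the other relatives, HNRNPA2B1 held TAGGG at position -89, and the promoters of HNRNPA3 and HNRNPDL had no match on either strand. On the opposite strand, HNRNPA0 held TAGGG at position -64 and HNRNPA2B1 at position -250, and no other TAGG was found there. In the 50 bases from the start, on the strand of the transcript, 2.69% of all 35116 promoters in the table held TAGGG and 10.1% held TAGG. Over all 300 bases the shares were 18.6% and 49.9% on the strand of the transcript, 18.1% and 48.5% on the opposite strand, and 32.8% and 71.5% on either. The rest of each 500-base window, beyond these 300 bases, was not searched. These matches describe the letters and show no binding site.

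The knockdown comparison asked whether RNAs of the relatives differ between cells given hnRNPA1 siRNA and cells given control siRNA. HNRNPA1 itself, at 33.0% of its control level, had 6506, 6413, 7185 and 5306 normalised reads in hnRNPA1 siRNA libraries, against 18637, 20403, 18614 and 19348 in control libraries, and fell (limma adjusted p = 2.2e-06, log2 fold change -1.61). In these bulk samples, fewer cells holding an RNA and less of it per cell cannot be told apart. The test called 252 of 15267 genes at an adjusted p under 0.05 (1.65%), with 103 higher (0.675%) and 149 lower (0.976%). With libraries rescaled to equal totals, summed without genes whose symbols begin with MT-, 24 were higher and 66 lower. The count was 254, 74, 69 and 193 without hnRNPA1 siRNA libraries 1 to 4, and 73, 138, 156 and 61 without control libraries 1 to 4. None of the 6 relatives was called by limma. The log2 fold change was above 0 in HNRNPA2B1, HNRNPA3, HNRNPA0, HNRNPAB and HNRNPD and below 0 in HNRNPDL, with a median of 0.27, against 0.004 over all genes tested. An unadjusted p under 0.05 was reached by 5 of the 6, where 19.2% of all genes tested reached it. The 95% interval lay above 0 in 4 relatives (9.5% of genes tested) and below 0 in HNRNPDL alone (9.7%).

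HNRNPA2B1 (ENSG00000122566.22), a splicing regulator that often acts beside hnRNPA1, had the largest difference of the 6. It had 24659, 18040, 27813 and 20140 normalised reads in hnRNPA1 siRNA libraries 1 to 4, against 14078, 14917, 17077 and 17799 in control siRNA libraries 1 to 4. All 4 hnRNPA1 siRNA libraries lay above all 4 control libraries, but hnRNPA1 siRNA library 2 exceeded the highest control library by little, and the 4 hnRNPA1 siRNA libraries spread more widely than the controls. The means were 22663 ± 4406 in hnRNPA1 siRNA libraries and 15968 ± 1757 in control libraries (SD, n = 4 each), a ratio of 1.42. The log2 fold change was 0.49 (95% interval 0.21 to 0.78) and missed the threshold without a replicate block (limma adjusted p = 0.078).

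HNRNPA3, whose protein binds an RNA transport signal recognised by hnRNPA2 as well, was next. It had 4401, 3415, 4918 and 4553 normalised reads in hnRNPA1 siRNA libraries 1 to 4, against 2950, 2934, 3939 and 3286 in control libraries 1 to 4. The groups overlapped, since hnRNPA1 siRNA library 2 stood below control library 3. The means were 4322 ± 642 in hnRNPA1 siRNA libraries and 3277 ± 470 in control libraries (SD, n = 4 each; ratio 1.32), with a log2 fold change of 0.40 (95% interval 0.14 to 0.65, limma adjusted p = 0.099).

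HNRNPA0, an intronless hnRNP A gene whose protein binds AU-rich mRNAs, had 3110, 2616, 3064 and 2875 normalised reads in hnRNPA1 siRNA libraries 1 to 4, against 2046, 2545, 2722 and 2333 in control libraries 1 to 4. Here too hnRNPA1 siRNA library 2 stood below control library 3, so the groups overlapped. The means were 2916 ± 224 in hnRNPA1 siRNA libraries and 2411 ± 291 in control libraries (SD, n = 4 each), and the log2 fold change was 0.28 (95% interval 0.08 to 0.48, limma adjusted p = 0.13). HNRNPAB, which differs from the other A relatives in grouping by sequence with the D family, had 4548, 4445, 4663 and 5011 normalised reads in hnRNPA1 siRNA libraries, against 3918, 4106, 4027 and 4351 in control libraries. Its groups did not overlap, although the difference was small, with means of 4667 ± 246 in hnRNPA1 siRNA libraries and 4100 ± 184 in control libraries (SD, n = 4 each) and a log2 fold change of 0.19 (95% interval 0.04 to 0.34, limma adjusted p = 0.17). HNRNPA2B1 and HNRNPAB were thus the 2 relatives with every hnRNPA1 siRNA library above every control library, which held for 5.69% of genes tested. None had every hnRNPA1 siRNA library below every control library (5.95%).

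HNRNPD, the AU-rich element binding protein gene, had 1374, 975, 1347 and 1363 normalised reads in hnRNPA1 siRNA libraries 1 to 4, against 862, 870, 1317 and 1196 in control libraries 1 to 4. Control libraries 3 and 4 lay close to the hnRNPA1 siRNA libraries, and hnRNPA1 siRNA library 2 lay among the controls. The means of 1265 ± 194 in hnRNPA1 siRNA libraries and 1061 ± 231 in control libraries (SD, n = 4 each) differed by no more than the spread of the control libraries, and the 95% interval of the log2 fold change of 0.26 ran from -0.05 to 0.58 (limma adjusted p = 0.34). HNRNPDL, which like HNRNPD lies on chromosome 4, stood on the other side. It had 5707, 4991, 5060 and 4522 normalised reads in hnRNPA1 siRNA libraries, against 5943, 5740, 5682 and 6166 in control libraries. The lone overlap was hnRNPA1 siRNA library 1, which stood just above control library 3. The means were 5070 ± 488 in hnRNPA1 siRNA libraries and 5883 ± 219 in control libraries (SD, n = 4 each; ratio 0.862), with a log2 fold change of -0.22 (95% interval -0.39 to -0.05, limma adjusted p = 0.16). In the 5 genes with a positive fold change, hnRNPA1 siRNA library 2 was the lowest of its group each time, and in HNRNPDL hnRNPA1 siRNA library 4 was.

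**Figure D1:**
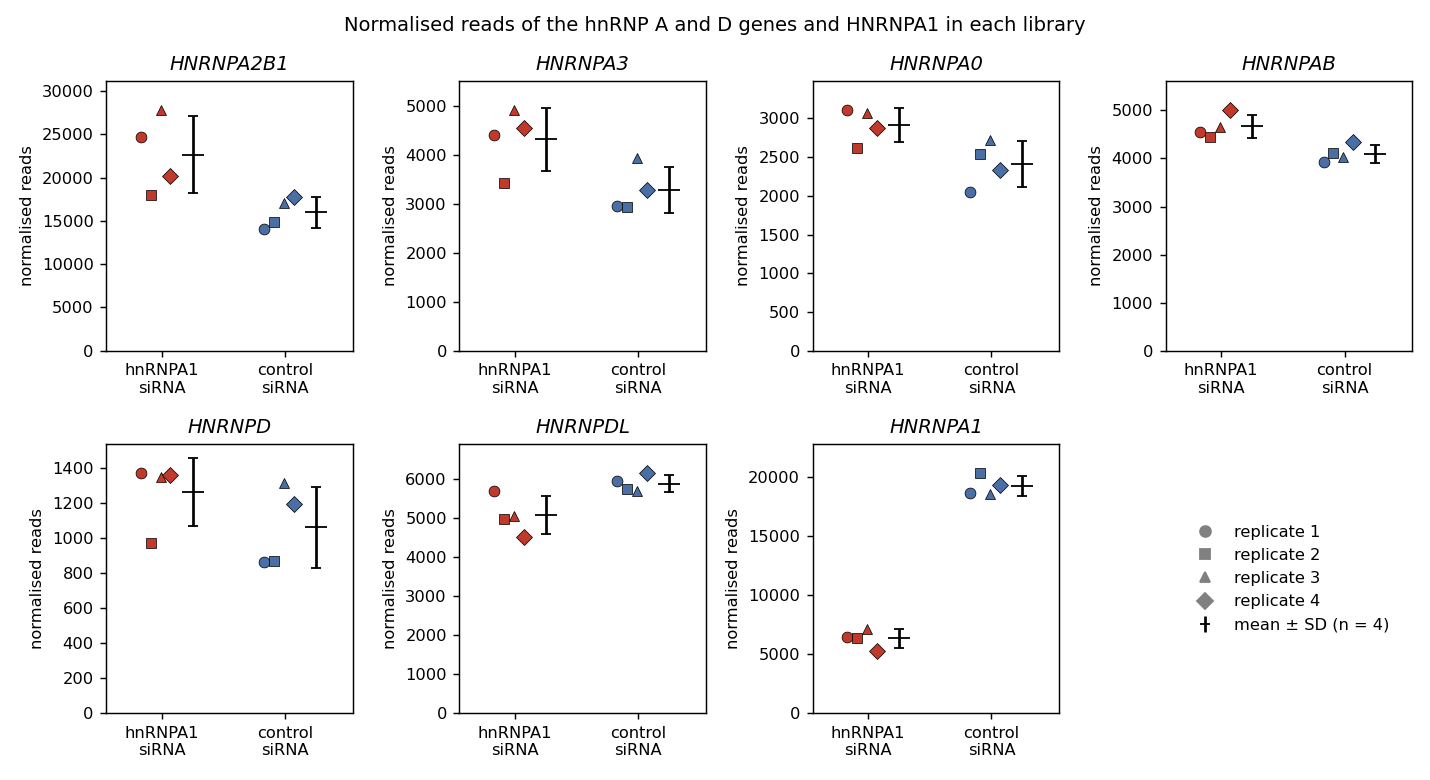
Normalised reads (vertical axes, from 0) of the 6 relatives and HNRNPA1 in the 4 hnRNPA1 siRNA libraries (red, left) and the 4 control siRNA libraries (blue, right) of each panel, with symbols for replicate numbers and bars for mean ± SD (n = 4). HNRNPA2B1 and HNRNPAB are the relatives whose groups do not overlap, HNRNPDL is lower on average in hnRNPA1 siRNA libraries, and HNRNPA1 averages 6352 in hnRNPA1 siRNA libraries against 19250 in control libraries.

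Whether members differed from each other in their response was compared for all 15 pairs by the log2 difference of the pair within each library. The 3 pairs with the smallest p each set HNRNPDL against another member. HNRNPA2B1 stood 2.14 ± 0.25 log2 units above HNRNPDL in hnRNPA1 siRNA libraries and 1.43 ± 0.15 in control libraries (SD, n = 4 each). The difference of 0.71 gave an exact permutation p = 0.0286, the smallest that 4 against 4 libraries allow, and 0.143 adjusted over the 15 pairs. Against HNRNPDL the difference was 0.50 for HNRNPA0 and 0.40 for HNRNPAB, with the same exact permutation p. No pair passed after adjustment. Since no p can be smaller than 0.0286, a few pairs cannot pass over 15 comparisons, however large their differences. The lack of a passing pair therefore does not show that members responded alike. The closest log2 fold changes were those of HNRNPA0 and HNRNPD, which differed by 0.01 (exact permutation p = 0.914). This p does not show equal responses either. These within-library ratios compare changes and not levels between genes.

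Profiles over the 8 libraries were also compared with those of the 7633 genes above the median level, by the root mean square (RMS) difference of log2 values after centring each gene on its own mean. Nearest to HNRNPA2B1 were NBPF26, a gene with near-identical copies between which reads may be split (RMS 0.124), FKBP5 (0.126) and IPO8 (0.129), and HNRNPA3 had rank 4 (0.139). Nearest to HNRNPA3 were CBX5, EDEM1 and MAP1B (0.0635 to 0.0722). For HNRNPA0 they were BAZ2A, PHACTR4 and TATDN2 (0.0463 to 0.0559), and for HNRNPAB PSMF1, ARHGAP19 and CYB5R3 (0.0311 to 0.0332). SASH1, ZNF142 and CUX1 were nearest to HNRNPD (0.0767 to 0.0924), where HNRNPA3 had rank 22. HNRNPDL was nearest to IL6ST, NEMF and TDG (0.0293 to 0.0357), and the other relatives had ranks of 5745 to 7475 of the 7633 genes in distance from it. The other relatives had ranks of 4 to 6076 from HNRNPA2B1, 43 to 6315 from HNRNPA3 and 660 to 6190 from HNRNPA0. From HNRNPAB the ranks were 2307 to 6471, and from HNRNPD 22 to 5623. A small RMS also arises between genes that vary little, so the values are not comparable between members.

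The lists of other genes of the hnRNP network held 3 called genes beside HNRNPA1. Over all genes tested, 0.675% were called higher and 0.976% lower, and 19.2% had an unadjusted p under 0.05. Of 7 genes related by sequence, which include HNRNPA1, 2 fell and none rose, with a median log2 fold change of 0.10. RBM3, a cold-inducible RNA-binding protein gene, was the other that fell, to 2801 ± 429 normalised reads in hnRNPA1 siRNA libraries, against 4163 ± 451 in control libraries (SD, n = 4 each; log2 fold change -0.58, limma adjusted p = 0.023). Of 22 other hnRNP genes 1 rose and none fell (median 0.09, 17 above 0). It was HNRNPH3, a splicing regulator of the hnRNP H/F family, at 2766 ± 366 in hnRNPA1 siRNA libraries and 1441 ± 203 in control libraries (SD, n = 4 each; log2 fold change 0.94, limma adjusted p = 0.0014). None of 8 genes for import or modification of these proteins was called by limma (0 at an unadjusted p under 0.05), and PRMT5, an arginine methyltransferase, stood nearest at a log2 fold change of 0.16 (limma adjusted p = 0.29).

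The remaining lists concern mRNA decay. Of all genes tested, 1.65% were called and 19.2% had an unadjusted p under 0.05. None of 10 genes of nonsense-mediated decay was called (3 at an unadjusted p under 0.05, median 0.15), and SMG6, the decay endonuclease, stood nearest at 0.38 (limma adjusted p = 0.093). None of 7 other AU-rich element binding protein genes was called (2 at an unadjusted p under 0.05, median 0.02), and KHSRP, a decay-promoting one, stood nearest at 0.35 (limma adjusted p = 0.14). Among 7 mRNAs known as HNRNPD targets, CCND1, the cyclin D1 gene, fell to 421 ± 50.1 normalised reads in hnRNPA1 siRNA libraries, against 623 ± 87.3 in control libraries (SD, n = 4 each; log2 fold change -0.56, limma adjusted p = 0.032), and the other 6 were not called. The calls of RBM3 and CCND1 were lost with equal library totals (adjusted p = 0.065 and 0.082 by limma). They were also lost without hnRNPA1 siRNA library 2 (0.065 and 0.084), control library 3 (0.0504 and 0.070) or control library 4 (0.083 and 0.095), RBM3 without control library 1 (0.070), and CCND1 without hnRNPA1 siRNA library 3 (0.057) or 4 (0.051) or control library 2 (0.069).

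**Figure D2:**
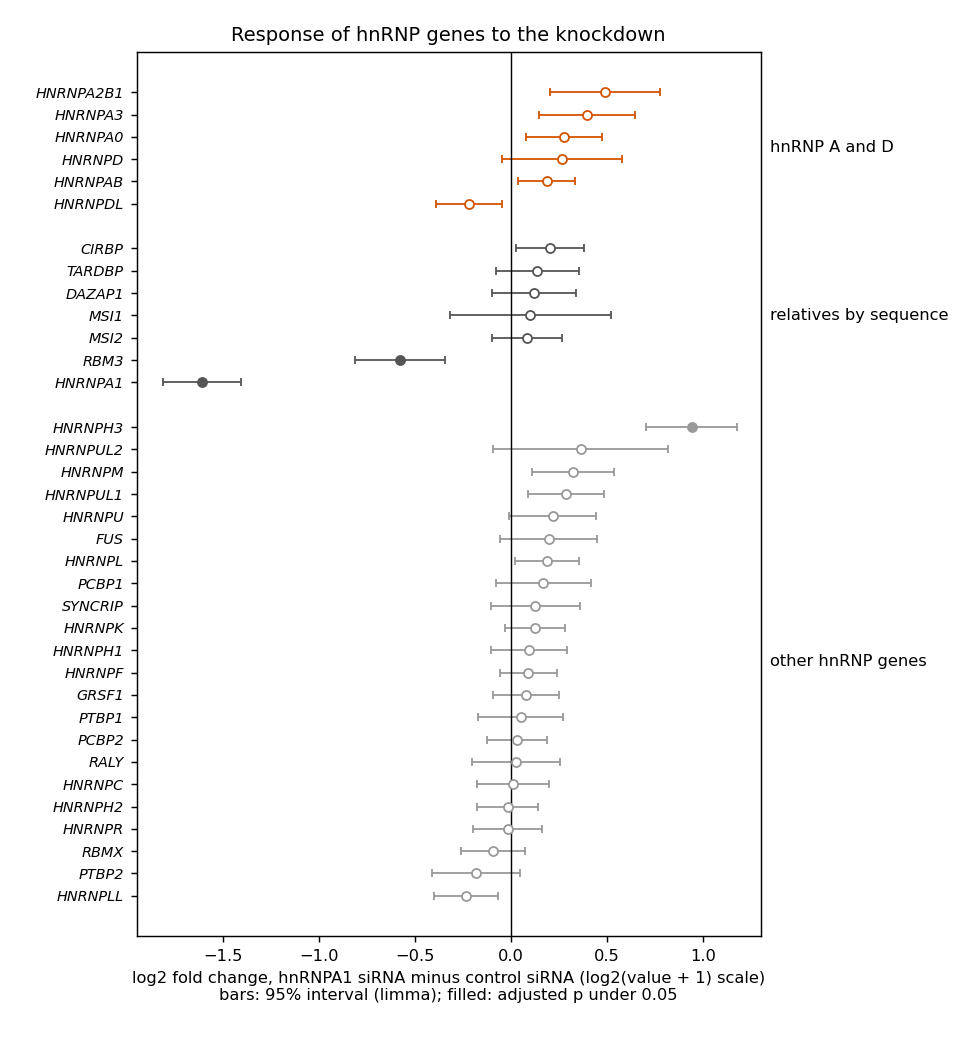
Log2 fold change (horizontal axis, hnRNPA1 siRNA minus control siRNA, log2(value + 1) scale) of the 6 hnRNP A and D relatives, 7 genes related by sequence and 22 other hnRNP genes, with 95% limma intervals over 4 and 4 libraries. Filled points have an adjusted p under 0.05. The relatives lie between -0.22 (HNRNPDL) and 0.49 (HNRNPA2B1), and RBM3, HNRNPA1 and HNRNPH3 are filled.

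The RIP lists give, per compartment, RNA windows found with the hnRNPA1 antibody. In the authors' lists all 6 relatives held at least 1 window of the whole-cell list, 19 windows in all. A window of that list lay in 39.2% of all genes tested, and in 76.5% of those at or above the mean level of HNRNPD, the lowest of the 6. None held a window of the cytosolic list (5.17% of genes tested, 10.4% at that level). HNRNPA2B1 and HNRNPA3 held 2 windows each of the mitochondrial list (6.39% and 19% of genes). Signal values, p and q are the authors', 1 list exists per compartment, and no value per library is given, so none of these counts has a replicate spread and signal values are not compared between lists. Windows are listed as 500 bases, with coordinates as in the lists.

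The highest of the 19 was the sole window of HNRNPD, at chr4:82373498-82373998 on the minus strand, with a signal value of 3.27 and p and q listed as 0. Its rank was 77 of 13007 windows, whose median is 1.22. It covers the start shown above and 493 bases after it, at the 5′ end of a gene span of 21494 bases. HNRNPA0 had 2 windows, 1 over its start (chr5:137754151-137754651, signal value 1.39) and a weaker one 712 bases into the gene (0.83). HNRNPAB had 3 windows, and the one that begins at its start (chr5:178204533-178205033) had a signal value of 1.53. A window over the RefSeq start was thus found in 3 of the 6 relatives, against 24.7% of 1195 protein-coding genes with a whole-cell window and a span within the range of the relatives. Those genes were matched on span and not on level or on windows per gene. Whole-cell windows numbered 5 in HNRNPA2B1, 4 in HNRNPA3, 2 in HNRNPA0, 3 in HNRNPAB, 1 in HNRNPD and 4 in HNRNPDL. Windowed genes tested at or above the mean level of HNRNPD held a median of 2 each.

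HNRNPA2B1 had 5 whole-cell windows. The strongest (1.88) was assigned to the gene by the list but lay upstream of its RefSeq start (positions -811 to -311) at chr7:26201057-26201557, and overlapped the first bases of CBX3, which is transcribed from the other strand. The next (1.80, p and q listed as 0) lay at chr7:26190557-26191057, from 9689 bases after the start of a gene span of 10820, and a window of signal value 1.01 adjoined it. The others had signal values of 1.59 and 1.05. HNRNPA3 had 4 windows with signal values of 0.90 to 1.36, all at or beyond 4769 bases after its start in a gene span of 11166. HNRNPDL had 4, of which 2 adjoining ones (1.84 and 0.96) began 398 bases after its start and 1 (1.80) began 6898 bases after the start of a span of 7899.

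The third HNRNPAB window, at chr5:178210033-178210533 on the plus strand with a signal value of 1.90, shared 438 bases with a window of PHYKPL on the minus strand, whose signal value was 1.89. PHYKPL overlaps HNRNPAB tail to tail. The sources used here do not state how strand was used, so reads of the 2 genes at this place cannot be told apart.

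In mitochondria, HNRNPA3 had windows at chr2:177219063-177219563 (signal value 1.15) and chr2:177221063-177221563 (0.94). The first was identical to a whole-cell window, and it was the sole member window shared between lists. The mitochondrial windows of HNRNPA2B1, both with a signal value of 0.89, lay 2500 bases (chr7:26198057-26198557) and 500 bases (chr7:26189057-26189557) from the nearest whole-cell window, and the second begins 369 bases beyond the RefSeq end of the gene. All 4 lay below the median signal value of the mitochondrial list, 1.25. HNRNPA1 itself had 3 windows in the whole-cell list and 3 in the mitochondrial list and, like the relatives, none in the cytosolic list.

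**Figure D3:**
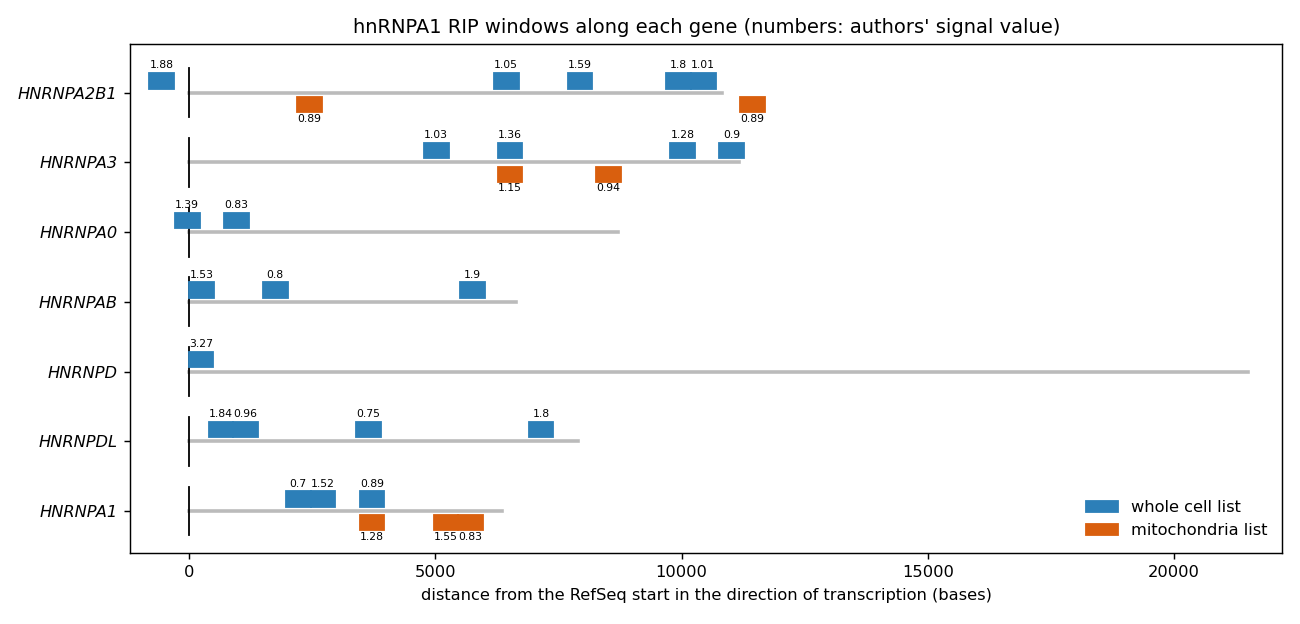
Windows of the whole-cell list (blue) and the mitochondrial list (orange) along each gene, drawn to scale in bases from the RefSeq start (vertical tick) in the direction of transcription, with grey lines for the RefSeq gene span and the authors' signal value beside each window. Windows over the start are seen in HNRNPA0, HNRNPAB and HNRNPD, and the HNRNPA3 window 6269 bases after the start recurs in both lists.

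**Figure D4:**
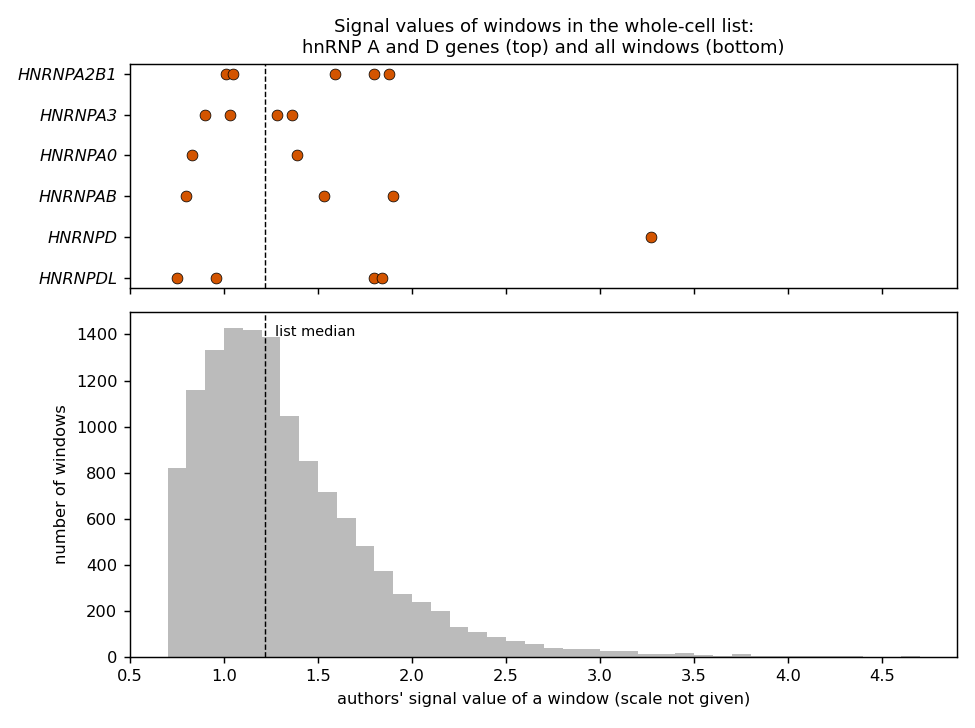
Signal values of the 19 whole-cell windows of the relatives (top, 1 point per window) above a histogram of all 13007 windows of that list (bottom), with the list median of 1.22 as a dashed line. The HNRNPD window at 3.27 stands apart from the other 18, which lie between 0.75 and 1.90.

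Processed copies of members also appeared in the lists. HNRNPA3P10 and HNRNPA3P5, pseudogene copies of HNRNPA3, each held 1 window of the cytosolic list (signal values 1.60 and 1.02), in which HNRNPA3 held none. Reads of such copies cannot be told with certainty from those of HNRNPA3. HNRNPA3P5 stood at 7.65 ± 3.66 normalised reads in hnRNPA1 siRNA libraries and 4.47 ± 1.36 in control libraries (SD, n = 4 each), below the minimum for testing. HNRNPA3P6, the tested copy, stood at 17.9 ± 4.85 in hnRNPA1 siRNA libraries and 11.7 ± 1.71 in control libraries (SD, n = 4 each; limma adjusted p = 0.30).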

How the data were processed

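RNA of HEK293 cells given siRNA against hnRNPA1 or control siRNA (n = 4 each) was compared, and the peak lists of 3 hnRNPA1 RNA immunoprecipitations (RIP) were read. The authors deposited the siRNA values as a signal for each gene, at or above 0, read here as read numbers scaled by library. Only 82.4% to 84.4% of low values, by library, fell on whole multiples of a common step (tolerance 0.02), too few for a count test. STAR 2.7.8a, Partek, DESeq2 and hg38 are named per the submitters' processing notes without a role. How reads were assigned to genes is unstated there. The authors deposited for each RIP window a signal value, which is a score of unstated scale, with a p-value and a q-value. For the lists, the sources used here name neither build nor background library. Of 11755 matched whole-cell windows, 41.6% started a whole number of 500 bases from the RefSeq start of their gene on GRCh38.p14, where random placement gives 0.2%, so that build was used for positions within genes.

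A gene entered the fit when 4 or more libraries reached a value of 10 (15267 of 16382 genes). These were fitted with limma 3.58.1 in R 4.3.3 (variance trend, log2(value + 1), no replicate block, Benjamini-Hochberg adjustment over all genes tested). The code of the fit was checked on simulated data with noise drawn independently for each library. That check set no minimum for planted rises to be called. Differences between members were compared by exact permutation tests over libraries, two-sided. The members, lists and tests were chosen with earlier results of these data known. The text names all members, HNRNPA1, the called genes of each list or else its member with the smallest adjusted p, copies of members, the 3 genes most alike in profile to each member, and member windows. Alternatives were equal library totals, a replicate block, each library left out, a pseudocount of 0.1, testing without the filter or above the median level only, stricter window thresholds and other overlaps. Those for the lists were added after the data were seen. The equal library totals left out genes whose symbols begin with MT-. Figures were drawn with matplotlib 3.10.9.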

Additional observations from a re-analysis of the deposited data

Results flagged for a closer look

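HNRNPD in hnRNPA1 siRNA library 2, at 975 normalised reads, lay far below the other 3 libraries of its group (1347 to 1374), with a gap to the nearest of 0.933 of the group's range, above the 95% critical value of Dixon's test for 4 samples. In 14 groups examined (7 genes, 2 groups each), chance gives such a value in about 1 of 20. Without that library the log2 fold change of HNRNPD was 0.39 instead of 0.26, and the gene was not called (limma adjusted p = 0.19). The same library was the lowest of its group for HNRNPA2B1, HNRNPA3, HNRNPA0 and HNRNPAB, and its part in these results was not tested beyond leaving it out.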

How the results depend on the processing

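No alternative turned the sign of any relative. Their log2 fold changes ran from 0.39 to 0.59 (HNRNPA2B1), 0.33 to 0.51 (HNRNPA3), 0.20 to 0.34 (HNRNPA0), 0.15 to 0.22 (HNRNPAB), 0.17 to 0.39 (HNRNPD) and -0.28 to -0.17 (HNRNPDL). None was called in 12 of 13 alternatives. With the replicate number as a block 2 were called, HNRNPA2B1 (0.49, limma adjusted p = 0.023) and HNRNPA3 (0.40, limma adjusted p = 0.0087), among 1191 genes called in all. Deviations of same-numbered libraries correlated at 0.119, 0.292, 0.043 and 0.234, and those of other-numbered ones at -0.251 to 0.247. hnRNPA1 siRNA libraries 1 and 2 correlated above 0 with control libraries 1 and 2 and below 0 with 3 and 4. Library 4 did the reverse, and library 3 ran from -0.092 to 0.052. Not every library correlated best with its own number, so the numbers were not taken to pair the libraries. By number, hnRNPA1 siRNA was higher in 4 of 4 pairs for each relative with a positive fold change, and in 0 of 4 for HNRNPDL. Whether relatives are called thus depends on this choice. Over all genes 90 were called with equal library totals and 61 to 254 with 1 library left out. The lists had 3 called genes beside HNRNPA1, 10 with the replicate block, 1 with equal totals and 1 to 3 with 1 library left out. HNRNPH3 was called in each of these. No pair of relatives passed with the replicate block, where the design cannot pass (smallest exact p of 0.125 for 4 pairs). None passed with 1 library left out, where the smallest after adjustment over the 15 pairs was 0.143 to 0.286. The smallest exact permutation p was 0.0286 each time, the lowest that 3 against 4 libraries allow. With all libraries or 1 left out, a few pairs at that value cannot pass either. Of the 19 whole-cell windows, 11 lay above the list median, and of the 4 mitochondrial windows 1 had a q of at most 0.005 and 0 lay above the median. The cause of these changes was not tested. Depth is unknown for the RIP lists.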

Other observations

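Of 14 genes next to or overlapping a relative in RefSeq, 6 were in the siRNA table and 5 were tested, and none was called by limma (0 at an unadjusted p under 0.05). ENOPH1, which starts 128 bases from HNRNPDL on the other strand, stood nearest, at 852 ± 43.2 normalised reads in hnRNPA1 siRNA libraries and 766 ± 29.5 in control libraries (SD, n = 4 each; limma adjusted p = 0.26). CBX3, which starts 697 bases from HNRNPA2B1 on the other strand, had 3 whole-cell windows and 1 cytosolic window. The ENOPH1 window that begins at its own start had a signal value of 2.52, above each HNRNPDL window.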
